A study of Mus musculus with 14 samples.

Results

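A set of 5294 SMAD4 peaks was listed in BMP6-stimulated muscle stem cells (MuSCs) at places that carried neither a SMAD4 peak in control cells nor a pSMAD1/5/9 peak in BMP6-stimulated cells. They are called gained SMAD4-only peaks here. The members were chosen by overlap of the peak lists: a SMAD4 peak of BMP6-stimulated cells was taken when it overlapped no SMAD4 peak of control cells and no pSMAD1/5/9 peak of BMP6-stimulated cells by 1 bp or more. This held for 41.2% (95% Wilson interval 40.3 to 42.0) of the 12860 SMAD4 peaks of BMP6-stimulated cells. It held for 75.5% of the 7008 SMAD4 peaks that were gained, that is, had no SMAD4 peak of control cells beneath them. The other 1714 gained peaks overlapped pSMAD1/5/9 and are called gained joint peaks. Of the peaks shared with control cells, 2080 had no pSMAD1/5/9 (shared SMAD4-only peaks) and 3772 had it. The gained joint and the shared SMAD4-only peaks are the sets most like the gained SMAD4-only peaks, since each differs from them in 1 criterion, and they served for comparison.

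The MuSCs came from female C57BL/6N(Tg(Pax7-EGFP)Tajb) mice at 9 weeks of age, in which a Pax7-EGFP transgene marks these cells, and were sorted for this reporter and cultured. All cells were starved without serum for 6 h in 200 ng/mL of a soluble BMPR1A receptor, which captures BMPs. They then received 100 ng/mL BMP6 or, as controls, the vehicle of 4 mM HCl with 0.1% BSA, for 1 h. CUT&Tag, in which an antibody brings the Tn5 transposase to chromatin, was made from 100000 cells per library after fixation in 0.1% formaldehyde for 2 min, with 2 biological replicates for each antibody (SMAD4, pSMAD1/5/9 and H3K27ac) and condition. The libraries were made from cells in bulk, so more cells with a bound site and more binding per cell cannot be told apart.

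SMAD4 is the common partner of the receptor-regulated SMADs. BMP receptors phosphorylate SMAD1, SMAD5 and SMAD9, while TGF-β and activin receptors phosphorylate SMAD2 and SMAD3, and each of these enters the nucleus in a complex with SMAD4. SMAD3 and SMAD4 bind the SMAD box CAGAC and its palindromic doubling, and SMAD1, SMAD5 and SMAD4 also bind GC-rich sites, which in many BMP target genes stand at a fixed spacing from a SMAD box. The pSMAD1/5/9 antibody does not detect SMAD2 or SMAD3. In MuSCs, BMP signaling is known to hold back differentiation. SMAD2 and SMAD3 were not measured in these libraries.

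The sequences below show sites for these factors at individual gained SMAD4-only peaks. Each is 60 bases of the plus strand of GRCm39 centred on the site, which is in capitals. The name is that of the gene with the nearest TSS or, for Pax7, Bach1 and Gdf11, of the listed gene within 20 kb. The first set holds the site of AP-1, a family of transcription factors that often bind beside SMADs, written as TGACTCA or TGAGTCA. It comes from the strongest gained SMAD4-only peaks at listed genes.
Gdf11, chr10:128747005-128747064: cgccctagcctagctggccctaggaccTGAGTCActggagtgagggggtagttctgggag
Pax7, chr4:139524804-139524863: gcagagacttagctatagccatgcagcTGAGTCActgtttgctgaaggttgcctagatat
Bach1, chr16:87496966-87497025: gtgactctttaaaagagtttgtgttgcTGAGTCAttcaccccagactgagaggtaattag

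The second set holds the SMAD palindrome GTCTAGAC, from the 6 strongest gained SMAD4-only peaks that contain it. These peaks ranked between 2210 and 3201 among the 12860 SMAD4 peaks, and the site lay between 21 bp and 79 bp from the summit. The peaks at Rgs12 and Dlc1 lay in introns and the other 4 were intergenic, including the peak 45380 bp from the TSS of Pmepa1, a feedback inhibitor of TGF-β signaling.
Sspn, chr6:145973133-145973192: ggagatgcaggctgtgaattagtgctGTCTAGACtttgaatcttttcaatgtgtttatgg
Rgs12, chr5:35113668-35113727: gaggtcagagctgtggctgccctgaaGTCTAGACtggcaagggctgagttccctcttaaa
Pmepa1, chr2:173163711-173163770: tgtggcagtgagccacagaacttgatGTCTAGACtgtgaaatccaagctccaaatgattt
Ppara, chr15:85573277-85573336: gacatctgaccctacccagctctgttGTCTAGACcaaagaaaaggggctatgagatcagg
Zfp664, chr5:125000327-125000386: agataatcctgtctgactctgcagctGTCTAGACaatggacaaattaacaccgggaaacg
Dlc1, chr8:37191063-37191122: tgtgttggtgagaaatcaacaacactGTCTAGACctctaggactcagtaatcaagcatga

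The third set holds the spaced BMP response element, a GC-rich site (GGAGCC or GGCGCC) followed after 5 bases by GTCT, on either strand. It was found in 11 gained SMAD4-only peaks, of which 7 lay at a TSS, those at Zfp566 and Kif21b among them. The 3 printed are examples and not the strongest 3, since windows in a UTR, among others, were left out.
Gtf2h5, chr17:6156857-6156916: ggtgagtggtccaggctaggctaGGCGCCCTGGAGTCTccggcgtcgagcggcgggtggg
Zfp566, chr7:29790008-29790067: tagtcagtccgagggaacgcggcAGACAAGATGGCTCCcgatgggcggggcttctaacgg
Kif21b, chr1:136058958-136059017: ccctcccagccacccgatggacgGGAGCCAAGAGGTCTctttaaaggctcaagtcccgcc

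The gained SMAD4-only peaks were mostly weak. Peak strength is given as the signal of the peak caller, a score without a unit, which is compared by rank within the list. Strength, width and the distances between peaks bear on the choice of members, so they are described without a test. The median signal was 6312 (quartiles 4736 and 8781), against 10080 for gained joint and 10514 for shared SMAD4-only peaks. In the first replicate column the median was 3800 and in the second 2286, and both stood below the medians of the whole list, 6055 and 3318. Over the 5294 members, Spearman's rho of the first with the second column was 0.628, as a description over peaks of the same libraries. It was 0.692 for gained joint, 0.688 for shared SMAD4-only peaks and 0.810 for the whole list, whose signals span a wider range. When the SMAD4 list was cut by consensus rank into 4 bins of equal size, 145 gained SMAD4-only peaks (2.74%) fell into the strongest and 2448 (46.2%) into the weakest bin. With 10 bins, they made up 1.01% of the strongest and 83.0% of the weakest. The peaks were also narrow, with a median of 396 bp against 504 bp in gained joint and 509 bp in shared SMAD4-only peaks. The irreproducible discovery rate (IDR), the expected share of peaks that do not recur between replicates, was at most 0.01 for 1105 of them (20.9%), compared with 52.9% and 54.0% in the comparison sets.

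**Figure D1:**
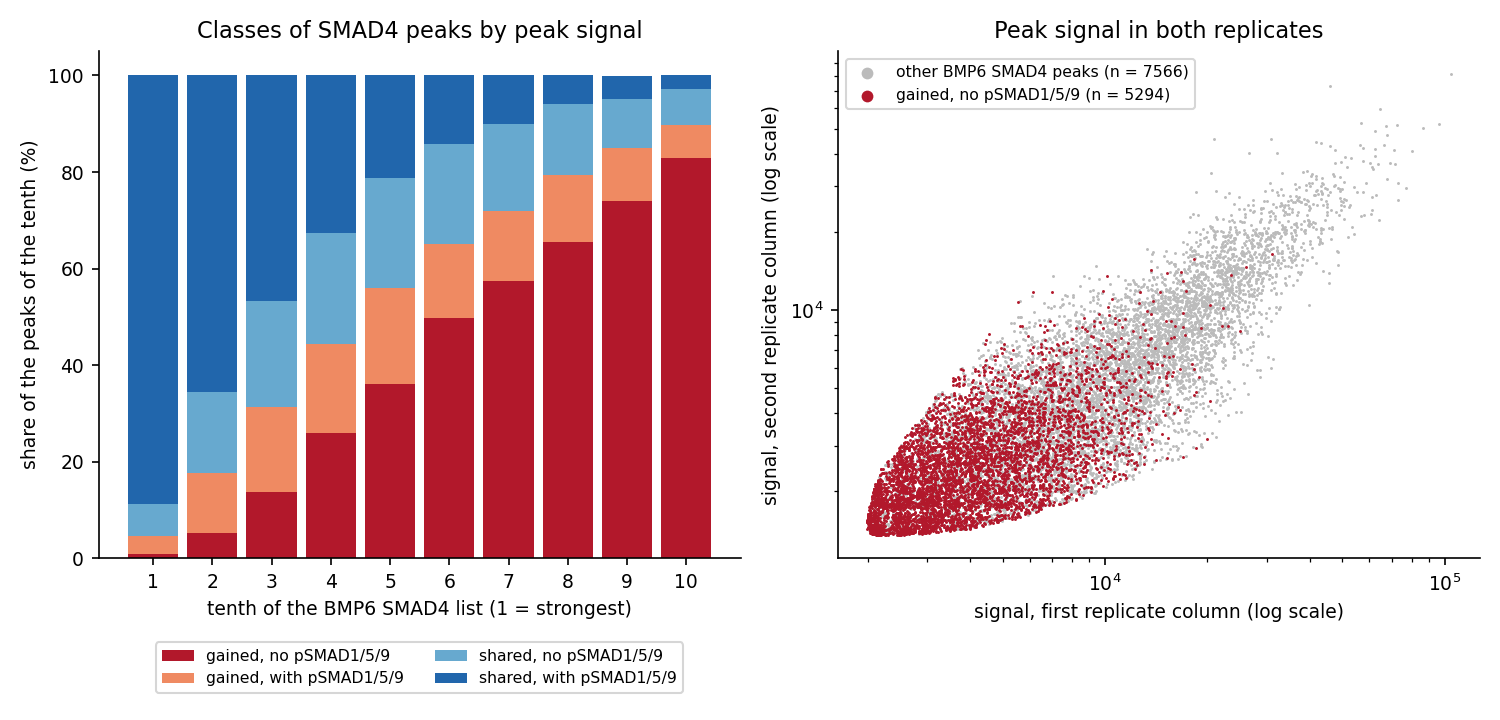
Left, share (%) of each of 10 equal bins of the 12860 SMAD4 peaks of BMP6-stimulated cells, strongest to weakest by consensus signal, that fell into each of the 4 classes of peaks. Right, signal of each peak in both replicate columns (log scales), where the 5294 gained SMAD4-only peaks gather at the weak end in both columns and reach 83.0% of the weakest bin.

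Many gained SMAD4-only peaks lay far from the binding that excluded others. The nearest SMAD4 peak of control cells was a median of 31911 bp away, against 19574 bp for gained joint peaks. The nearest pSMAD1/5/9 peak of BMP6-stimulated cells was a median of 37552 bp away, against 29160 bp for shared SMAD4-only peaks. Neither was found within 20 kb of 2699 gained SMAD4-only peaks (51.0%). At the edge of the rule, 11 peaks touched a SMAD4 peak of control cells without a shared base, and 110 had one within 100 bp. For pSMAD1/5/9, the closest peak was 1 bp away and 81 were within 100 bp. Just outside the rule, 38 of the 2080 shared SMAD4-only peaks overlapped the control peak by at most 100 bp, as did 42 of the 1714 gained joint peaks with pSMAD1/5/9. Another gained SMAD4-only peak lay within 10 kb of 1166 of them (22.0%). Gained SMAD4-only peaks made up between 36.2% of the SMAD4 peaks of a chromosome (chromosome 19) and 64.8% (309 of 477 on the X chromosome).

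The cell type was checked with H3K27ac, a mark of active promoters and enhancers. Of 8 markers of MuSCs, 7 (Pax7, Myf5, Myod1, Cdh15, Itga7, Vcam1 and Chodl) had an H3K27ac peak at the TSS in both conditions, and Calcr had none. No marker of fibro-adipogenic (4 genes), endothelial (3), blood (3) or Schwann cells (3) had one in both conditions. A fibro-adipogenic and a Schwann cell marker had 1 each in control cells alone.

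Most gained SMAD4-only peaks lay in H3K27ac, but a smaller share than in the comparison sets. In BMP6-stimulated cells, 4781 of 5294 overlapped an H3K27ac peak (90.3%, 89.5 to 91.1), against 1709 of 1714 gained joint peaks (99.7%) and 2047 of 2080 shared SMAD4-only peaks (98.4%). The difference was -9.40 percentage points (95% interval -10.20 to -8.54) from gained joint peaks, with an adjusted p of 8.8e-57, and -8.10 points (-9.05 to -7.11) from shared SMAD4-only peaks, with an adjusted p of 1.8e-41 (Fisher's exact test over peaks, two-sided, with Benjamini-Hochberg adjustment over 6 tests of overlap and location). For the H3K27ac peaks of control cells, the shares were 87.1%, 98.7% and 97.2%, and the gained SMAD4-only peaks again stood lower than both sets (adjusted p = 6.2e-59 and 2.9e-46, same exact test). Since neighbouring peaks share libraries and chromatin, the p-values and intervals describe these lists and cover counting error over peaks alone. Peak strength moved with this difference: 97.2% of the gained SMAD4-only peaks of the strongest of the 4 bins and 83.5% of those of the weakest overlapped H3K27ac. In the same 2 bins the shares were 100% and 99.7% for gained joint peaks, and 97.7% and 97.9% for shared SMAD4-only peaks. In the strongest bin, gained SMAD4-only peaks thus stood near the shared SMAD4-only peaks. Within these bins, the odds of overlap with H3K27ac of BMP6-stimulated cells were 0.0407 times those of gained joint and 0.213 times those of shared SMAD4-only peaks. At an IDR of at most 0.01 in all lists, the differences from shared SMAD4-only peaks were no longer called (odds ratio 0.914 after BMP6 and 0.888 in control cells, adjusted p = 0.875 for both, same exact test).

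H3K27ac was listed in both conditions at 4576 gained SMAD4-only peaks (86.4%). It was listed after BMP6 alone at 205 (3.87%), in control cells alone at 35, and in neither at 478 (9.03%). In the gained joint set, 18 peaks (1.05%) had H3K27ac after BMP6 alone and 4 had it in neither condition. It was listed after BMP6 alone at 30 shared SMAD4-only peaks (1.44%) and at 4 shared peaks with pSMAD1/5/9 (0.106%). The H3K27ac list itself was longer after BMP6, with 78050 peaks against 67790 in control cells. Of all 12860 SMAD4 peaks, 95.7% overlapped the former and 94.0% the latter. A change of H3K27ac at these peaks was not tested. Where a gained SMAD4-only peak lay in H3K27ac, that H3K27ac peak stood at a median of the top 12.7% of its list by signal, against 7.96% for gained joint peaks. It usually held no other binding used by the rule. Of the 4781 peaks, 3614 (75.6%) lay in an H3K27ac peak with neither a SMAD4 peak of control cells nor a pSMAD1/5/9 peak. A control SMAD4 peak stood elsewhere in the same H3K27ac peak for 987 (20.6%) and a pSMAD1/5/9 peak for 875 (18.3%). The comparison sets stood near these shares. A control SMAD4 peak was in the H3K27ac peak of 25.9% of gained joint peaks, and a pSMAD1/5/9 peak in that of 21.9% of shared SMAD4-only peaks. All of these shares use the lists of the rule, so they are described without a test. The 513 gained SMAD4-only peaks outside H3K27ac of BMP6-stimulated cells were weaker (median rank 11767 against 9063), poorer in G and C (median 48.0% against 54.5% of the 200 bases at the summit) and mostly intergenic (64.1% against 33.9%). Of these 513, 168 were on the X chromosome, where 141 of 309 gained SMAD4-only peaks lay in H3K27ac (45.6%, 40.2 to 51.2), against 93.1% (92.3 to 93.8) on the autosomes.

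**Figure D2:**
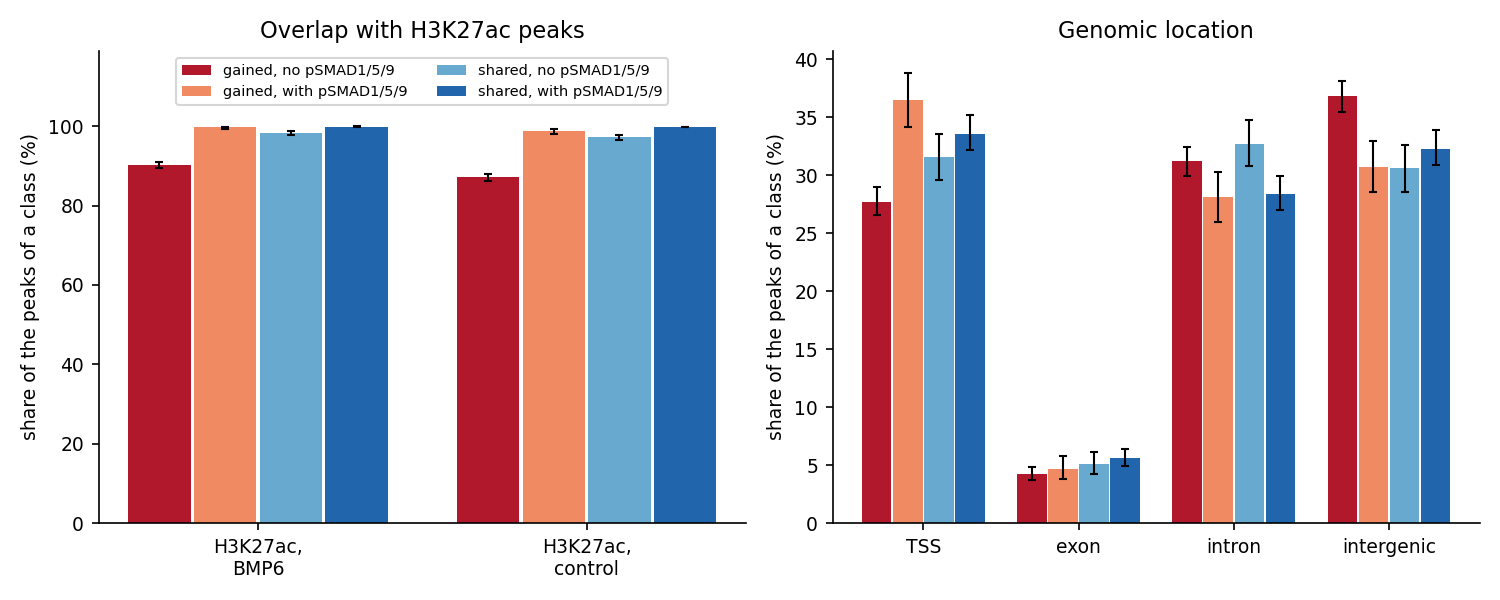
Share (%) of the peaks of each class that overlapped an H3K27ac peak (left) or lay at a TSS, in an exon, in an intron or in intergenic sequence (right), with 95% Wilson intervals as error bars. Gained SMAD4-only peaks (gained, no pSMAD1/5/9) had the lowest share in H3K27ac of BMP6-stimulated cells, 90.3%, and the lowest share at a TSS, 27.7%.

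Gained SMAD4-only peaks lay at promoters less often than either comparison set. Peaks with a base within 2 kb of a TSS counted as promoter peaks. They were 1469 of the gained SMAD4-only peaks (27.7%, 26.6 to 29.0), 36.5% of the gained joint peaks and 31.6% of the shared SMAD4-only peaks. The difference was -8.72 percentage points (-11.30 to -6.16) from the former (adjusted p = 1.8e-11, same exact test) and -3.84 points (-6.19 to -1.53) from the latter (adjusted p = 0.00113, same exact test). At an IDR of at most 0.01 in all lists, where membership changed as described above, neither was called, with odds ratios of 0.930 and 1.03. Of the other gained SMAD4-only peaks, 1949 (36.8%) were intergenic, 1650 (31.2%) lay in introns and 226 (4.27%) in exons. Those at a TSS overlapped H3K27ac of BMP6-stimulated cells in 98.2% of cases, and those in intergenic sequence in 83.1%.

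The sequence at the summits was compared over 12 motifs in windows of 200 bp, counting exact matches on both strands. The spaced element contains the GC-rich site, and the palindrome contains GTCT. The SMAD palindrome GTCTAGAC stood in 60 gained SMAD4-only peaks (1.13%, 0.882 to 1.46), in 8 gained joint peaks (0.467%, 0.237 to 0.918) and in 37 shared SMAD4-only peaks (1.78%, 1.29 to 2.44). It was found in 1.26% of all SMAD4 windows and in 0.209% of 78050 windows of the same length at the midpoints of H3K27ac peaks. The difference between gained SMAD4-only and gained joint peaks was 0.667 percentage points (0.150 to 1.06), which narrowly missed the threshold (adjusted p = 0.0515, Fisher's exact test, two-sided, adjusted over 24 motif tests). It passed in 9 of 11 alternatives, with odds ratios up to 10.0, but not with peaks at a TSS left out (2.30) or at the peak midpoint (2.39). By strength, the palindrome was in 4.14%, 2.09%, 1.17% and 0.572% of the gained SMAD4-only peaks from the strongest to the weakest of the 4 bins. In gained joint peaks it was in 1.59% of the strongest bin and 0.493% of the second. In the third and weakest bins together, 35 of 4238 gained SMAD4-only peaks held it (0.826%), against 0 of 791 gained joint peaks, which allows a share of up to 0.379%. Compared within bins by the Mantel-Haenszel method, its odds in gained SMAD4-only peaks were 5.38 times those in gained joint peaks, which passed the threshold. Against shared SMAD4-only peaks the difference of -0.645 points did not pass (adjusted p = 0.0936, same exact test), with an odds ratio of 0.633. It was called lower in gained SMAD4-only peaks in 2 of 11 alternatives, at an IDR of at most 0.01 in all lists (0.522) and in windows of 400 bp (0.615), while within bins the odds ratio turned to 1.28, which did not pass.

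Other motifs were less frequent in gained SMAD4-only peaks than in gained joint peaks. The GC-rich SMAD site (GGAGCC or GGCGCC) stood in 26.2% and 31.9% of the windows, a difference of -5.69 percentage points (-8.22 to -3.22, adjusted p = 4.4e-05, same exact test). Myogenic bHLH factors bind the E-box CAGCTG, which stood in 25.0% of gained SMAD4-only peaks and 514 of the 1714 gained joint peaks, a difference of -4.96 points (-7.45 to -2.53, adjusted p = 3.6e-04, by the same exact test). The SP/KLF site GGGCGG, a common promoter element, stood in 21.1% and 28.9% (adjusted p = 1.3e-09, same exact test). At an IDR of at most 0.01 in all lists, with its changed membership, the GC-rich site (odds ratio 0.814) and the SP/KLF site (0.881) no longer passed. Nor did the GC-rich site within bins by strength over peaks in H3K27ac (0.870). The TEAD site GGAATG, bound by effectors of the Hippo pathway, stood in 13.7% and 16.2% (adjusted p = 0.0442, same exact test), a call that was lost in 9 of 11 alternatives. Against shared SMAD4-only peaks, the E-box (31.4% there, adjusted p = 4.7e-07 by exact test) and the SP/KLF site (24.7%, adjusted p = 0.00362) were the motifs that passed, and the latter lost its call within bins by strength (odds ratio 0.890), with peaks at a TSS left out (0.830) and at the stricter IDR (0.952). The E-box differences also passed within bins by strength, with odds ratios of 0.769 against gained joint and 0.715 against shared SMAD4-only peaks. They did not pass when the first replicate column was left out, that is, with the peak bounds and summits of the second column (0.886 and 0.903). The peaks stayed the same in that setting, so it does not show dependence on a replicate. The AP-1 site stood in 14.4% of the gained SMAD4-only peaks and in 14.4% of the gained joint peaks, with a difference of -0.0360 points whose interval runs from -2.01 to 1.82. The SMAD box CAGAC stood in 52.6%, 50.5% and 54.4% of the gained SMAD4-only, gained joint and shared SMAD4-only peaks. The RUNX site TGTGGT (22.1% of gained SMAD4-only peaks), the ETS site CCGGAA (7.25%), the FOX site TGTTTAC (2.00%), the spaced BMP response element (0.208%) and the NFI palindrome (0.0567%) did not pass against either set. GC content moved with these differences: the median of the windows was 54.0% in gained SMAD4-only, 56.0% in gained joint and 54.5% in shared SMAD4-only peaks, and its part in them was not tested.

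**Figure D3:**
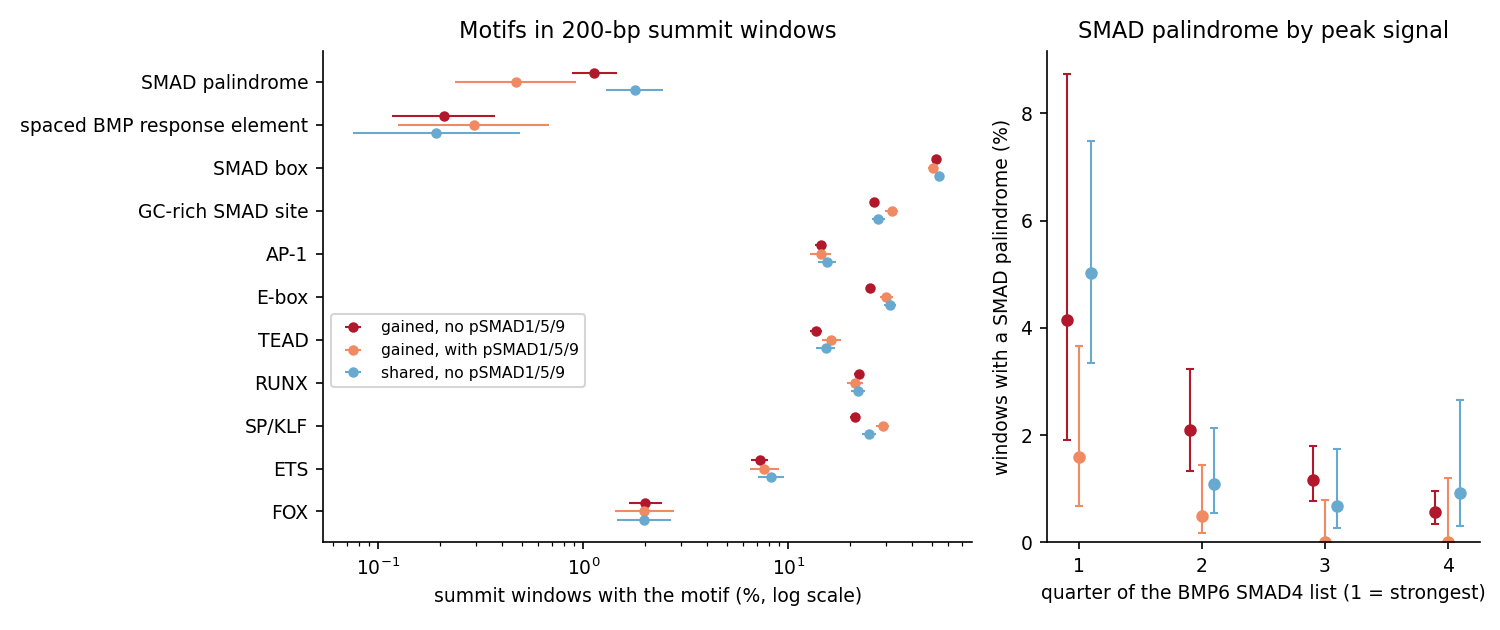
Left, share (%, log scale) of 200-bp summit windows with each motif in gained SMAD4-only, gained joint and shared SMAD4-only peaks, with 95% Wilson intervals. Right, share with the SMAD palindrome in each of 4 equal bins of the SMAD4 list by signal, where gained SMAD4-only peaks went from 4.14% in the strongest to 0.572% in the weakest.

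The motif content of gained SMAD4-only peaks split by location. At a TSS, 44.5% of the windows had the GC-rich SMAD site and 55.1% the SP/KLF site, while 4.83% had the AP-1 site and 0.272% the SMAD palindrome. In intergenic sequence the shares were 19.3%, 7.90%, 17.5% and 1.39%, and in introns 17.9%, 7.70%, 18.5% and 1.45%. The RUNX site was in 9.53% of the windows at a TSS and 27.2% of the intergenic ones. Of the 60 palindromes, 27 were in intergenic peaks and 24 in introns. Windows of H3K27ac peaks, taken at the midpoint, held the AP-1 site in 7.66% and the E-box in 16.1% of cases, and all SMAD4 windows in 15.1% and 29.1%.

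These motifs were densest near the summit of gained SMAD4-only peaks. Per 1000 peaks and 100 bp, the SMAD palindrome was found 8.69 times within 50 bp of the summit and 0.567 times at 450 bp to 500 bp. For AP-1 the density went from 89.5 to 18.9 and for the E-box from 164 to 56.1. The GC-rich SMAD site went from 175 to 101. Within 50 bp, the density of the palindrome was 1.75 in gained joint peaks, from 3 sites, and 10.6 in shared SMAD4-only peaks, and that of AP-1 was 91.0 and 101.

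**Figure D4:**
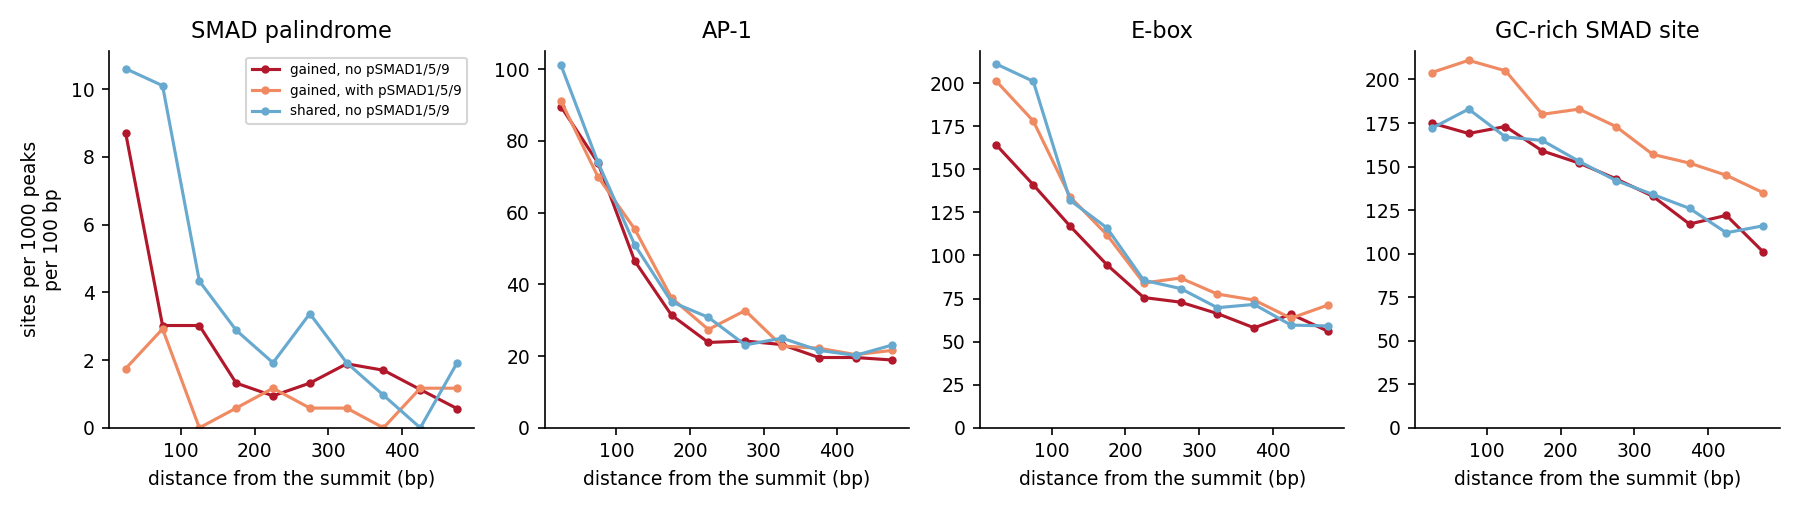
Density of 4 motifs (sites per 1000 peaks per 100 bp) in steps of 50 bp by distance from the summit, for gained SMAD4-only, gained joint and shared SMAD4-only peaks. In gained SMAD4-only peaks the AP-1 density went from 89.5 at the summit to 18.9 at the outer edge.

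The 10 strongest gained SMAD4-only peaks ranked between 367 and 1130 of the SMAD4 list. The first lay on chromosome 10 from 19489009 to 19490258, intergenic and 8332 bp from the TSS of Il22ra2, which codes for a decoy receptor of interleukin 22. Its signal was 30916 in the first and 16456 in the second replicate column (ranks 326 and 483), and the nearest control SMAD4 and pSMAD1/5/9 peaks were 21087 bp and 21222 bp away. The next lay in an intron of Creb3l2, a transcription factor of the secretory pathway, with signals of 25935 and 14620. A peak in an intron of Rbms3, an RNA-binding protein, had 23452 and 13674. Introns also held the peaks nearest to Gpr52, an orphan receptor, and in Nfatc1 and Runx1, transcription factors of calcium signaling and of blood development. Of the peaks at a TSS, that of Gclm, a subunit of the enzyme that makes the glutathione precursor, had its summit 46 bp from the TSS (signals 23092 and 8711). The peak at Syn1, a synaptic vesicle protein, had 25014 and 8334, ranks of 618 and 1898, and H3K27ac after BMP6 alone. Cxcr4, a chemokine receptor, was the nearest gene of an intergenic peak with 22237 and 10143. The peak nearest to Insig1, a regulator of sterol synthesis, had 22142 and 8706 and lay outside H3K27ac in both conditions. The other 8 overlapped H3K27ac in both conditions, and none of the 10 held the SMAD palindrome.

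Within 20 kb of the gene body, 4963 of 21603 protein-coding genes (23.0%) had a gained SMAD4-only peak, which is 58.0% of the 8557 genes with any SMAD4 peak of BMP6-stimulated cells. These shares are the background for the gene lists below. A single such peak stood at 3648 genes, 2 or 3 at 1195 and 4 or more at 120. At 2017 of the genes (40.6%) gained SMAD4-only peaks were the sole SMAD4 peaks after BMP6 and no pSMAD1/5/9 peak was listed, and at 1750 of these no SMAD4 peak of control cells was listed either. The median length of genes with such a peak was 23496 bp, against 16252 bp for all protein-coding genes.

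Pax7, the transcription factor that defines MuSCs, had the most, with 11 gained SMAD4-only peaks among 28 SMAD4 peaks, near the 41.2% of the whole list. It also had 19 SMAD4 peaks of control cells and 15 pSMAD1/5/9 peaks. Pax7 (ENSMUSG00000028736.15) is on chromosome 4 (139464373 to 139560839, minus strand), and 6 of the 11 lay in its introns. The strongest, 36044 bp downstream of the TSS, had a signal of 6465 in the first and 6880 in the second replicate column and holds the AP-1 site printed above. The others ranked between 6070 and 12324, and all 11 overlapped H3K27ac in both conditions. Their distance to the nearest SMAD4 peak of control cells ranged from 519 bp to 12705 bp. Pxdn, which codes for an enzyme that crosslinks collagen of basement membranes, had 8 SMAD4 peaks, each of them gained SMAD4-only, beside 2 SMAD4 peaks of control cells and 1 pSMAD1/5/9 peak. Its strongest, in an intron, had signals of 11511 and 5826, and an exonic one held the SMAD palindrome. Aopep, an aminopeptidase, had 9 of 23 SMAD4 peaks. There were 8 at Septin9, a cytoskeletal GTPase (of 15), Zmiz1, a transcriptional coactivator (of 21), Ctif, a translation initiation factor (of 19), and Zbtb20, a zinc finger repressor (of 10). Tmem184b (of 8), Nav1 (of 14) and the receptor Notch2 (of 10) had 7. The genes with the most such peaks were long, between 44271 bp and 735258 bp.

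Genes of SMAD signaling itself also had gained SMAD4-only peaks within 20 kb, some of them at a neighbouring gene. The differences between these small lists were not tested. Among the inhibitory SMADs, corepressors and antagonists, 10 of 16 had one, which is 76.9% of those with any SMAD4 peak. The strongest lay in an intron of Pmepa1, which sequesters SMAD2 and SMAD3, with signals of 11152 and 7805 in the 2 replicate columns, 405 bp from a control SMAD4 peak. At Ski, a corepressor of SMADs, the values were 6875 and 9095, and in an intron of Smurf1, a ubiquitin ligase that acts on BMP signaling, 10395 and 5056. Nog, which codes for the BMP antagonist noggin, had 3 gained SMAD4-only peaks and no other SMAD4 peak of either condition within 20 kb, nor a pSMAD1/5/9 peak after BMP6. The strongest of these covered its promoter, with the summit 436 bp upstream of the TSS, and had 10966 in the first column (rank 3305) and 2336 in the second (rank 8981), so that its strength differed between replicates. The nearest control SMAD4 and pSMAD1/5/9 peaks were 94875 bp and 114960 bp away.

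Of 17 ligands, 6 had a gained SMAD4-only peak, or 75.0% of the 8 with any SMAD4 peak. Tgfb1 had 2 (9465 and 3371 for the strongest), as did Tgfb3 (7188 and 2141) and Tgfb2 (4389 and 2013 at its TSS), and Gdf11 had 1 (2972 and 1873). These code for TGF-β1, TGF-β3, TGF-β2 and a relative of myostatin. The strongest peaks of Tgfb1 and Gdf11 lay 10370 bp and 19256 bp upstream of their TSS, at the TSS of another gene. That of Tgfb3 lay in an intron of another gene, 42544 bp downstream of the Tgfb3 TSS. Of 13 receptors, 4 had a gained SMAD4-only peak, or 36.4% of those with any SMAD4 peak. The activin receptor gene Acvr1b (5790 and 4686) had no other SMAD4 peak. At Bmpr1a, a type I BMP receptor, the peak covered the TSS (5174 and 4259). The co-receptor Eng (5036 and 2237, in an exon of another gene) and the type II receptor Bmpr2 (2474 and 2816) had weak ones. Of the receptor SMADs and SMAD4, 2 of 6 had one (and 4 had any SMAD4 peak): Smad3, the effector of TGF-β, in an intron (3983 and 3489), and Smad4 itself at the TSS (4015 and 1462).

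Of 18 BMP target genes, 13 (72.2%) had a gained SMAD4-only peak, or 92.9% of those with any SMAD4 peak, beside 23.0% and 58.0% for all genes. The strongest lay 3324 bp upstream of Id2, an inhibitor of bHLH factors, with 10185 and 6531. A peak at the TSS of Atoh8, a bHLH factor, had 8643 and 3447, one 14700 bp downstream of the TSS of Id4 had 7848 and 3917 and lay outside H3K27ac in both conditions, and one upstream of Id3 had 7831 and 2411, 87 bp from a pSMAD1/5/9 peak. At Id2, Atoh8 and Id3, other SMAD4 peaks and pSMAD1/5/9 peaks stood in the same region, with 2, 9 and 6 pSMAD1/5/9 peaks. The shares of genes do not account for the number of SMAD4 peaks per gene. Id1 had 9 SMAD4 peaks, Atoh8 8, Id3 6 and Id2 5, of which 3, 2, 1 and 2 were gained SMAD4-only. At Id4, Dlx3, Gata2 and Gata3 all SMAD4 peaks were gained SMAD4-only peaks, and the other targets with such a peak stood between. Of 18 TGF-β target genes, 10 (55.6%) had one, or 58.8% of those with any SMAD4 peak. They included Junb (12288 and 5407), Lox, a collagen crosslinking enzyme (11021 and 3343), the cell cycle inhibitor Cdkn1a (8618 and 2658) and Ltbp2, a binding protein of the extracellular matrix (7864 and 3399). The Lox peak lay at the TSS and held the SMAD palindrome. Counts of these lists are given without a test.

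Of 25 Notch pathway genes, 13 (52.0%) had a gained SMAD4-only peak, or 65.0% of those with any SMAD4 peak. The receptor gene Notch3 had 6, the strongest at its TSS with 15086 and 5569, 21 bp from a pSMAD1/5/9 peak. Notch2 had 7 of 10 SMAD4 peaks, the strongest in an intron with 6069 and 3608. Maml3, a coactivator of the Notch complex, had 3 (6679 and 6462), and Nrarp, a feedback inhibitor of Notch, had 1 at its TSS (8956 and 2698), with H3K27ac after BMP6 alone. Nrarp had no other SMAD4 peak and no pSMAD1/5/9 peak. Of 24 myogenic genes, 13 had one (54.2%, the same as among those with any SMAD4 peak, since all 24 had one). Beside Pax7, they included Mef2d (8049 and 3795) and Mef2a (6060 and 5387), factors of differentiation, and Tcf4, a bHLH partner of MyoD (4968 and 6845). The Mef2a peak lay in an exon of another gene.

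Of 10 AP-1 factors, 7 had a gained SMAD4-only peak. That of Junb lay 6151 bp upstream of the TSS, 180 bp from a control SMAD4 peak. Fosl1 had 8349 and 5679, Bach1, a bZIP repressor, 6669 and 5511 at its TSS, with the AP-1 site printed above, and Fosb 7022 and 3607. The Fosl1 peak lay at the TSS of another gene and the Fosb peak in an intron of another gene. Of 20 extracellular matrix genes, 10 had a gained SMAD4-only peak, or 62.5% of those with any SMAD4 peak. Lamc1, a laminin chain, had 8816 and 4806, Vcan, a proteoglycan, 4802 and 6671, and the collagen genes Col5a1 and Col4a1 6445 and 3729, and 6003 and 3097. Vcan had no other SMAD4 peak, and its nearest control SMAD4 peak was 349821 bp away.

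**Figure D5:**
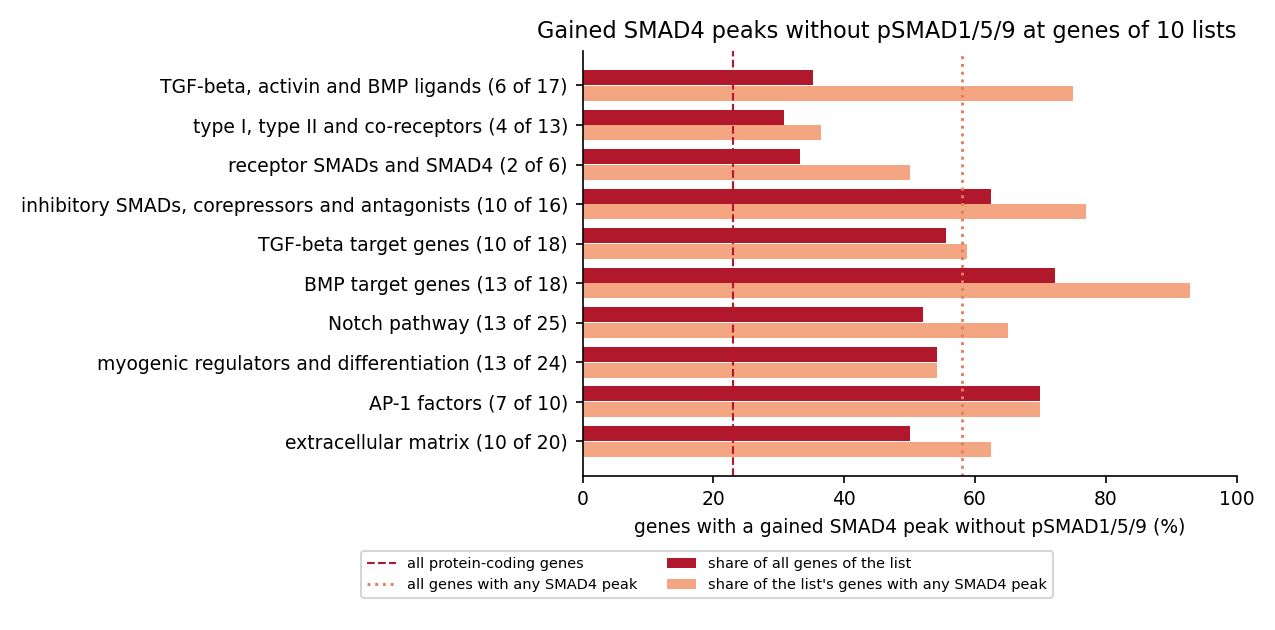
Share (%) of the genes of 10 lists with a gained SMAD4-only peak within 20 kb of the gene body, over all genes of a list and over its genes with any SMAD4 peak of BMP6-stimulated cells. The dashed and dotted lines give the same shares for all protein-coding genes, 23.0% and 58.0%, and BMP target genes reached 72.2% and 92.9%. These shares do not account for the number of SMAD4 peaks per gene.

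Over the 164 genes of the lists, 85 had a gained SMAD4-only peak (51.8%, or 63.4% of those with any SMAD4 peak). At 17 of the 85 (20.0%) these peaks were the sole SMAD4 peaks after BMP6 and pSMAD1/5/9 was not listed, against 40.6% of all genes with such a peak. Beside Nog, Acvr1b, Nrarp and Vcan, these were, in a choice made after their values were seen, the ligand genes Bmp4 and Gdf6, the BMP targets Dlx3 and Gata3, the Notch ligand genes Dll1 and Jag1, the muscle genes Pax3, Ckm and Mef2c, and the matrix genes Postn, Col1a2, Col3a1 and Lama2. Dlx3, Jag1 and Ckm had 2 such peaks each, the strongest ranking 6930, 8095 and 7236. The other 10 of these had 1 peak each, with ranks from 6666 at Dll1 to 12817 at Col1a2.

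The same rule was also applied with the conditions exchanged. Of the 8577 SMAD4 peaks of control cells, 2546 (29.7%, 28.7 to 30.7) overlapped no SMAD4 peak of BMP6-stimulated cells and no pSMAD1/5/9 peak of control cells. The exclusion was unlike that of the first rule, since the pSMAD1/5/9 list held 949 peaks in control and 7339 in BMP6-stimulated cells. Of the 2546 peaks, 2058 also overlapped no pSMAD1/5/9 peak of BMP6-stimulated cells. The shares of both rules are therefore described without a test. The median rank of the 2546 peaks stood at 75.7% of the control list, against 72.6% of the BMP6 list for the gained SMAD4-only peaks. They overlapped H3K27ac of their own condition in 90.6% of cases and a TSS in 28.1%. The SMAD palindrome stood in 7 of them (0.275%, 0.133 to 0.566), against 1.13% (0.882 to 1.46) of the gained SMAD4-only peaks, and AP-1 in 12.3% (11.1 to 13.6) against 14.4% (13.5 to 15.3). The E-box was in 29.8% (28.1 to 31.6) against 25.0% (23.9 to 26.2).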

How the data were processed

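CUT&Tag was done for SMAD4, pSMAD1/5/9 and H3K27ac in BMP6-stimulated and control MuSCs, with 2 biological replicates each. Of 14 libraries, 12 entered the 6 lists used, and the 2 without primary antibody were not analysed here. Per the methods, reads were subsampled to equal depth per antibody and aligned to GRCm39, and peaks were called in each replicate with JAMM and combined by IDR at a threshold of 0.05. The submitters' processing notes name Bowtie2 2.5.4, SAMtools 1.21 and bedtools 2.31.1. The authors deposited each peak with its position and summit, a signal and a scaled IDR, which are scores without a fixed unit, and the IDR as −log10. In every row the consensus signal was the 2 replicate signals added together, and the replicate columns carry no replicate number. Read counts are not part of the lists, so beyond this equal subsampling the depth behind a peak is unknown.

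Overlap was at least 1 bp. Genes were canonical transcripts of 21603 protein-coding genes of GENCODE on chromosomes 1 to 19 and X. Motifs were matched exactly on both strands, 100 bp on either side of the consensus summit. Shares have 95% Wilson intervals and differences Newcombe intervals, and shares were compared with two-sided exact tests (Fisher), with Benjamini-Hochberg adjustment over 6 tests of overlap and location and over 24 motif tests (Python 3.11.15, numpy 2.4.6, pandas 2.3.3, scipy 1.17.1, statsmodels 0.14.6, pysam 0.24.0, matplotlib 3.10.9). The procedures were tested on simulated data. Named genes were those nearest to the 10 strongest peaks, the 10 with the most peaks within 20 kb and, per list, up to 4 by the strongest peak. The members, gene lists, motifs and tests were chosen with earlier results of these data known. Alternatives covered the IDR threshold, the overlap, replicate columns, peak strength, windows, transcripts and autosomes. Where a replicate column was left out, the same peaks took the bounds and summits of the other column, and no peak was called anew. Sequences are printed as examples, and not every site is reported here.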

Additional observations from a re-analysis of the deposited data

How the results depend on the processing

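Over 212 recomputed values, 158 kept their direction and side of the threshold or stayed within 1.5 times a count. At an IDR of at most 0.01 in all lists there were 2495 gained SMAD4-only peaks at 2852 genes, and with that limit on the SMAD4 list of BMP6-stimulated cells alone 1105. With genes defined by a window from 1.5 kb before to 0.5 kb after the TSS, 1298 had one. At the IDR of 0.01, the odds ratios against shared SMAD4-only peaks were 0.914 and 0.888 for H3K27ac of BMP6-stimulated and control cells and 1.03 for TSS peaks, and the TSS odds ratio against gained joint peaks was 0.930. In that setting 2 motifs passed against gained joint peaks (4 in the report), and against shared SMAD4-only peaks the odds ratios turned to 1.16 for the GC-rich site, 1.15 for AP-1 and 1.05 for TEAD. The cause was not tested.

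Against shared SMAD4-only peaks, 1 motif passed (2 in the report) within bins by strength, with peaks at a TSS left out, and within bins over peaks in H3K27ac. Leaving out a replicate column, that is, taking the peak bounds and summits of the other, gave 1 to 2 motifs. The palindrome turned to 1.28 within bins and 1.24 within bins in H3K27ac, where the GC-rich site was 1.01. AP-1 against gained joint peaks, 0.997 in the report, was 1.04 to 1.05 without a replicate column, 1.00 on autosomes, 1.09 within bins, 1.13 within bins in H3K27ac and 1.04 at the peak midpoint. The midpoint and the bins in H3K27ac were chosen after seeing the data. No paired analysis was possible because the replicate columns carry no replicate number. A place without a listed peak may still hold reads, and the lists do not show how many.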

Other observations

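The 168 X-linked gained SMAD4-only peaks outside H3K27ac were narrow, with a median of 165 bp against 317 bp for the 345 autosomal ones, and their windows had a median GC content of 42.0% against 50.5%. The SMAD palindrome stood in 0 of the 168, which allows a share of up to 1.79%, against 10 of the 345 (2.90%, 1.58 to 5.25). Of the 168, 116 (69.0%) were intergenic and 5 lay at a TSS. Their median rank was 12148 of 12860.

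A pSMAD1/5/9 peak of control cells overlapped 30 gained SMAD4-only peaks (0.567%, 0.397 to 0.808), places where pSMAD1/5/9 was listed in control cells alone and SMAD4 after BMP6 alone. Of the gained joint peaks, 4.49% overlapped one, and of the shared SMAD4-only peaks 3.41%. The rule left out peaks with control SMAD4 or with pSMAD1/5/9 after BMP6, which bears on these shares, so they are described without a test. Of the 30, 13 lay at a TSS, and the strongest, which ranked 4462, lay in an intron 26967 bp from the TSS of Pepd. These 30 peaks were chosen after the lists had been seen.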
